A study of Equus caballus with 17 samples.

Results

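miR-499-5p is a mature microRNA (miRNA), a short RNA that lowers the output of mRNAs carrying matches to its seed, and was listed as eca-miR-499-5p in a table of small RNA counts from horse (Equus caballus) testis and sperm. It was chosen by its measured pattern: in earlier results of these data it changed over the testis stages and stood high in sperm, so its own levels are given here as a description, with no test. It had 1 entry among 274 annotated mature miRNAs and 1461 predicted hairpins. The libraries were Infant testis (n = 3), Pre-puber testis (n = 3), Puber testis (n = 3), Adult testis (n = 4) and Sperm (n = 4), named by stage and by the number in their titles, with no ages, breeds or treatments in the labels. The Infant libraries 31a and 31b carry the same number, as do the Pre-puber libraries 3a and 3b, and whether each pair came from 1 animal is not given. Sperm RNA received a shorter DNase step than testis RNA and a phenol:chloroform purification, so tissue and extraction cannot be told apart. All are bulk libraries, in which a change in the share of a cell type and a change in RNA per cell cannot be told apart.

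The miR-499 precursor belongs to the myosin-encoded miRNAs, which sit in introns of myosin heavy chain genes and are made from the same transcripts. In RefSeq's annotation of the thoroughbred genome, MIR499 lay within the span of the protein-coding gene MYH7B, MIR208A within that of MYH6 and MIR208B within that of MYH7. In mouse, miR-499 is known from heart and slow skeletal muscle, where it takes part with miR-208b in the programme of slow muscle fibres.

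Levels are given in CPM, the counts of a miRNA per 1000000 counts of annotated miRNAs in the library. In Infant testis, miR-499-5p stood at 21.2, 20.9 and 31.8 CPM in libraries 31a, 31b and 30. In Pre-puber testis it stood at 32.2, 18.0 and 35.1 CPM in libraries 3a, 3b and 14. The Infant range lay within the Pre-puber range. In Puber testis the level was 54.7, 111 and 165 CPM in libraries 10, 11 and 19. In Adult testis it was 208, 110, 244 and 230 CPM in libraries 13, 20, 33 and 4. All Puber and Adult libraries lay above all Infant and Pre-puber libraries, while Adult 20 lay within the Puber range. In Sperm the level was 3447, 6140, 2350 and 2861 CPM in libraries 1, 2, 3 and 4, and the lowest Sperm library lay above the highest testis library.

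**Figure D1:**
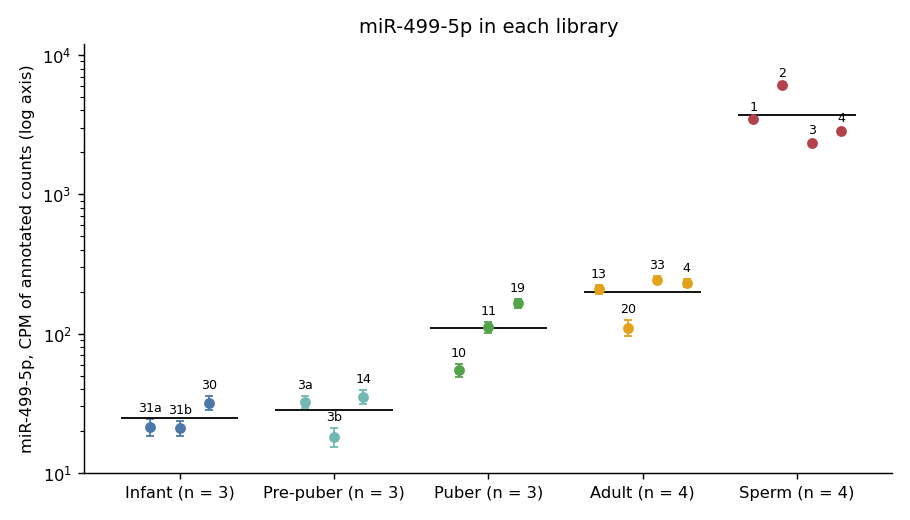
miR-499-5p in each of the 17 libraries, in CPM of annotated counts on a log axis. Points are libraries labelled by title number, bars are exact 95% binomial intervals for counting error, and black lines are group means, which run from 24.6 CPM in Infant and 28.5 in Pre-puber to 110.5 in Puber, 198 in Adult and 3700 in Sperm.

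Infant libraries averaged 24.6 ± 6.21 CPM and Pre-puber libraries 28.5 ± 9.16 CPM (SD, n = 3 each). The mean of the Puber libraries was 110.5 ± 55.4 CPM (SD, n = 3). The mean was 198 ± 60.6 CPM over Adult libraries and 3700 ± 1688 CPM over Sperm libraries (SD, n = 4 each). In this order, Infant and Pre-puber differed by less than their spread, and the ranges of Puber and Adult overlapped. Pre-puber and Puber did not overlap, nor did Adult and Sperm.

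Counting error was small beside the range of libraries in Puber, Adult and Sperm, but less so in Infant and Pre-puber. The exact 95% intervals of Infant 31a (18.4 to 24.3 CPM) and 31b overlapped, as did those of Pre-puber 3a (29.2 to 35.5) and 14 (31.2 to 39.5). Those of Adult 33 and 4 overlapped too. The fewest counts of miR-499-5p were the 150 of Pre-puber 3b, with an exact 95% interval of 15.3 to 21.2 CPM. The 258 counts of Infant 31b gave 18.4 to 23.6 CPM, and the 11758 of Sperm 2 gave 6030 to 6252 CPM. Annotated counts per library ran from 9.53 M to 12.4 M in Infant, 8.11 to 13.1 M in Pre-puber, 3.96 to 6.04 M in Puber, 2.18 to 4.62 M in Adult and 1.48 to 2.26 M in Sperm. Depth was thus lowest in Sperm, where the miRNA was highest, and the raw counts of miR-499-5p in each Sperm library still exceeded those of every testis library: they were 202 to 306 in Infant, 150 to 423 in Pre-puber, 330 to 655 in Puber, 240 to 1129 in Adult and 3482 to 11758 in Sperm. Sperm libraries held 81.7% of the 33657 counts of miR-499-5p in all libraries, and 7.43% of the annotated counts.

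The place of miR-499-5p among the annotated miRNAs of a library needs no scaling. Ranked by counts, it stood at positions 109 to 114 in Infant and 115 to 122 in Pre-puber. It stood at 92 to 107 in Puber and at 85 to 97 in Adult. In Sperm it stood at positions 24 to 29, among the more abundant miRNAs of every library. miRNAs with at least 1 count numbered 180 to 184 in Infant, 199 to 207 in Pre-puber, 204 to 207 in Puber, 191 to 206 in Adult and 159 to 181 in Sperm.

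For differences between groups, counts were fitted with edgeR after TMM scaling, which sets libraries so that most miRNAs do not differ. On this scale Infant libraries averaged 35.2 ± 3.90 CPM of miR-499-5p, Pre-puber libraries 29.6 ± 9.88 and Puber libraries 99.1 ± 31.9 (SD, n = 3 each), and Adult libraries averaged 146 ± 21.9 (SD, n = 4). In the separate fit of Sperm and Adult it averaged 6377 ± 2273 CPM in Sperm and 110 ± 26.7 in Adult (n = 4 each). Adult levels differ between the fits because each was scaled on its own.

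The log2 difference of miR-499-5p was -0.25 for Pre-puber against Infant and 1.74 for Puber against Pre-puber. It was 0.56 for Adult against Puber and 2.05 for Adult against Infant. For Sperm against Adult it was 5.86, a 58.0-fold higher level in Sperm on the TMM scale. This was the highest of 5 scalings, and with no scaling beyond the total the difference was 4.22. TMM takes most miRNAs as unchanged, yet 81.5% of 162 had an adjusted p under 0.05 in the edgeR fit of this comparison. The assumption may therefore not hold here. Without Adult 20 the TMM-scaled difference of miR-499-5p was 5.26, and the median of all tested miRNAs was then -0.51 in place of 0.06. Among 184 miRNAs fitted over the testis libraries, the differences of miR-499-5p ranked 119 from the highest for Pre-puber against Infant, 17 for Puber against Pre-puber, 41 for Adult against Puber and 36 for Adult against Infant. Among 162 fitted for Sperm against Adult it ranked 7. On the TMM scale the difference of Adult against Puber was smaller than that of Puber against Pre-puber, an order that turned round with predicted hairpins in the fit (0.28 and -0.035). The Sperm difference stood near the top of its comparison.

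**Figure D2:**
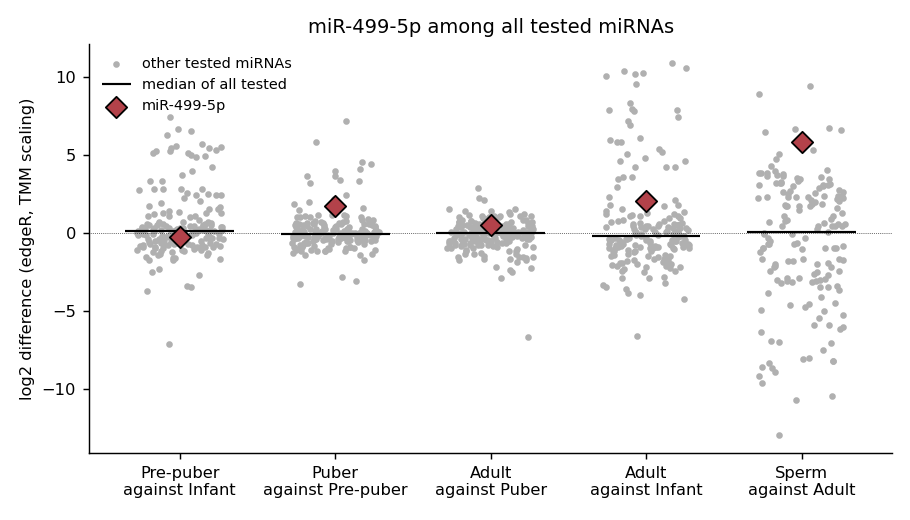
log2 differences of all tested miRNAs (grey points) in each comparison, with the median as a black line and miR-499-5p as a diamond. miR-499-5p lay at -0.25, below the median of 0.16, for Pre-puber against Infant, and above the median at 1.74 for Puber against Pre-puber, 0.56 for Adult against Puber, 2.05 for Adult against Infant and 5.86 for Sperm against Adult.

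The size of these differences depended on the scaling. The median log2 difference of all tested miRNAs for Sperm against Adult was 0.06 with TMM, -0.61 with DESeq2 size factors, -0.19 with upper quartiles, -0.995 with predicted hairpins in the fit and -1.61 with no scaling beyond the total. The difference of miR-499-5p moved with it, from 5.86 with TMM to 4.22 with no scaling. For Adult against Infant the median lay between -1.69 with hairpins in the fit and 0.82 with no scaling, and the difference of miR-499-5p at 0.44 and 3.01. For Puber against Pre-puber it was between 1.66 and 1.95 in the scalings of annotated miRNAs, but -0.035 with hairpins in the fit, where the median was -1.81. For Adult against Puber it was between 0.28 with hairpins in the fit and 0.85 with no scaling. For Pre-puber against Infant the sign itself turned, to 0.21 with no scaling and 0.20 with hairpins in the fit.

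A change of scaling adds nearly the same amount to the log2 difference of every miRNA, so a difference less the median of all tested miRNAs is nearly fixed by construction. This quantity, chosen after the values above were seen, therefore says nothing on stability and is given as the size relative to the other miRNAs. Over the 5 scalings miR-499-5p lay between -0.44 and -0.37 for Pre-puber against Infant and between 1.76 and 1.82 for Puber against Pre-puber. It lay between 0.54 and 0.59 for Adult against Puber, between 2.13 and 2.20 for Adult against Infant and between 5.80 and 5.91 for Sperm against Adult. Over all settings, with other tests and libraries left out, the ranges were wider: -0.50 to -0.20, 1.59 to 2.05, 0.33 to 0.74, 1.94 to 2.41 and 5.63 to 6.25 in the same order.

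**Figure D3:**
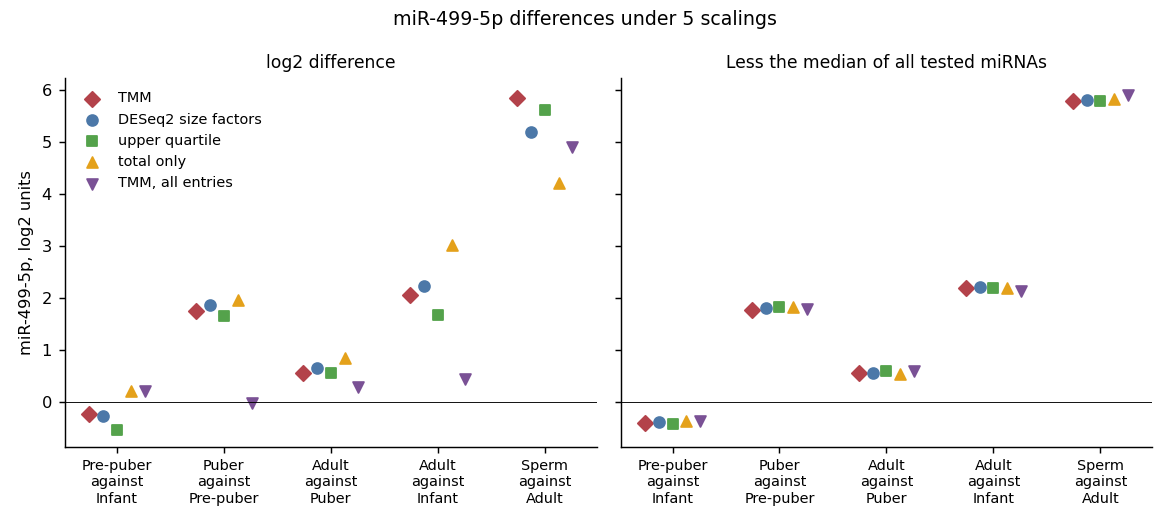
The log2 difference of miR-499-5p in each comparison under 5 scalings (left), and the same less the median of all tested miRNAs (right). On the left the values for Adult against Infant spread from 0.44 to 3.01, and on the right from 2.13 to 2.20.

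A ratio of counts within a library needs no scaling. miR-34c and miR-449a belong to related families known in mouse for high levels in spermatocytes and spermatids, and were the most abundant members of a germ cell list of 4 miRNAs in the table. Per 1000 counts of miR-34c there were 795, 1284 and 2638 counts of miR-499-5p in Infant 31a, 31b and 30, and 757, 288 and 15.3 in Pre-puber 3a, 3b and 14. The ratio was 6.10, 5.35 and 7.35 in Puber 10, 11 and 19, and 3.58, 2.88, 4.53 and 5.09 in Adult 13, 20, 33 and 4. In Sperm 1, 2, 3 and 4 it was 64.1, 37.0, 53.0 and 64.7 per 1000. From Infant to Adult the germ cell miRNA thus gained far more counts than miR-499-5p, whereas every Sperm library held more miR-499-5p per miR-34c than any Puber or Adult library. Against miR-449a, the ratio was 109 to 201 per 1000 in Sperm and 17.8 to 26.2 in Adult.

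**Figure D4:**
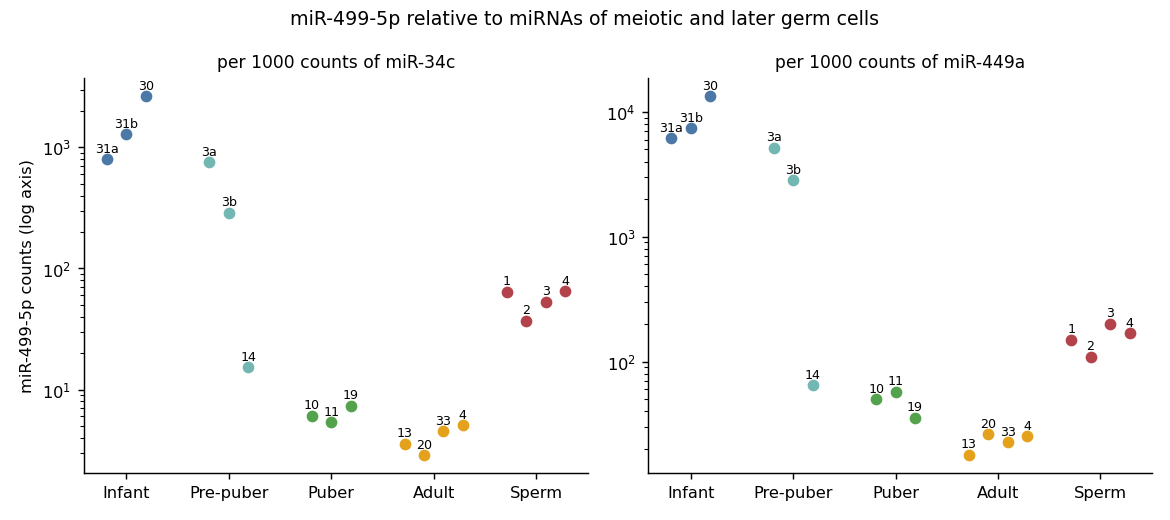
miR-499-5p counts per 1000 counts of miR-34c (left) and of miR-449a (right) in each library, on log axes, with libraries labelled by title number. For miR-34c the Sperm libraries sit between 37.0 and 64.7, above the Puber (5.35 to 7.35) and Adult (2.88 to 5.09) libraries and below Infant.

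Pre-puber 14 stood far above the other Pre-puber libraries in germ cell miRNAs, and was the highest of them in miR-499-5p by a smaller margin. The level of miR-34c was 2304 CPM in library 14, against 42.6 in 3a and 62.7 in 3b. miR-499-5p stood at 35.1 CPM in Pre-puber 14, against 32.2 in 3a and 18.0 in 3b. After TMM scaling it stood at 40.0 CPM in library 14, against 28.5 in 3a and 20.3 in 3b. In Puber 10, 11 and 19 miR-34c stood at 8957, 20812 and 22498 CPM, in the same order as miR-499-5p in those libraries. That order was not particular to germ cell miRNAs. From the stromal and blood lists below, miR-145, miR-199a-5p and miR-451 shared it, while miR-199b-5p, miR-150 and miR-142-5p did not, nor did miR-486-5p. Without Pre-puber 14 the log2 difference of miR-499-5p was 2.03 for Puber against Pre-puber and -0.50 for Pre-puber against Infant.

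The lists of miRNAs below come with tests from the same fits, with adjusted p under 0.05 as a call. They were drawn up with earlier results of these data known. Since no label says that replicates are separate animals, the p-values cover the spread among the libraries at hand, which may be technical. In the edgeR fits, 23.9% of 184 tested miRNAs were called for Pre-puber against Infant (15.8% higher, 8.15% lower), and 1.09% for Puber against Pre-puber (1.09% higher, 0% lower). No miRNA was called for Adult against Puber (0%, with 34 at an unadjusted p under 0.05), where DESeq2 called 10 and limma-voom 0. For Adult against Infant 51.6% were called (26.1% higher, 25.5% lower), and for Sperm against Adult 81.5% of 162 (42% higher, 39.5% lower). The split rested on the scaling: with none beyond the total, 84 of 105 calls were higher for Adult against Infant, 36 of 122 for Sperm against Adult and 36 of 41 for Pre-puber against Infant. With hairpins in the fit the higher calls were 30 of 143, 47 of 127 and 42 of 49 in these comparisons.

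Of the germ cell list, 4 of 4 members were higher in Adult than in Infant, with a median log2 difference of 10.28 against -0.14 over all tested miRNAs. miR-34c was at 58181, 38221, 53904 and 45308 CPM in Adult 13, 20, 33 and 4, and at 26.6, 16.2 and 12.0 CPM in Infant 31a, 31b and 30 (log2 difference 10.36, adjusted p = 0.000201). The difference of miR-499-5p in the same comparison was 2.05. For Sperm against Adult 4 of 4 were higher, by a median of 2.90 against 0.06, and miR-449a by 3.21 (adjusted p = 3.9e-09). The calls of miR-34c and miR-34b-5p in Sperm were lost with no scaling beyond the total (adjusted p = 0.131 and 0.0715), and that of miR-34c also with hairpins in the fit (adjusted p = 0.0554). For Pre-puber against Infant 3 of 4 were called higher. All of these calls were lost when library 14 was left out (log2 difference of miR-34c 0.95 in place of 5.02, adjusted p = 0.180), with limma-voom and with those groups alone, and 1 each without Infant 30, 31a or 31b. No member was called for Puber against Pre-puber (adjusted p = 0.0815 for miR-34c), but this depended on the setting. Over 15 other settings miR-34b-5p was called higher in 8, miR-34c in 5, miR-449a in 3 and miR-449b in 6. These included no scaling beyond the total and upper quartiles, each for miR-34b-5p, miR-34c and miR-449b. In those scalings 9 and 7 of 184 tested miRNAs were called (8 and 6 higher). With library 14 left out, 4 of 4 were called higher in Puber, with miR-34c at a log2 difference of 8.22. In that setting 30 of 184 tested miRNAs were called (24 higher). limma-voom also called 4 of 4, among 19 of 184 called (16 higher). No member was called for Adult against Puber, where 3 of 4 were called higher with those groups fitted alone. That fit called 19 of 176 tested miRNAs (5 higher).

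The share of muscle, the tissue in which miR-499 is best known, could not be read from the miRNAs analysed. Of the 9 miRNAs in the striated muscle list, 8 were not analysed here, among them miR-1, miR-133a, miR-206 and the myosin-encoded miR-208a and miR-208b. The remaining miR-486-5p is known from muscle and from red blood cells. It stood at 297, 585, 1010 and 976 CPM in Sperm 1, 2, 3 and 4 and at 946, 688, 4989 and 1144 in Adult 13, 20, 33 and 4. It stood at 228, 768 and 673 CPM in Puber 10, 11 and 19, 547, 126 and 1132 in Pre-puber 3a, 3b and 14, and 142, 220.0 and 4160 in Infant 31a, 31b and 30. It was not called in any of the 5 comparisons (adjusted p 0.343 to 0.913). Without Adult 33 it was called higher in Sperm (log2 difference 1.25, adjusted p = 0.0307), and with no scaling lower (-1.44, adjusted p = 0.0372), while in Adult against Infant it was called lower with hairpins in the fit (-1.96, adjusted p = 0.0478). Per 1000 counts of miR-486-5p there were 2326 to 11601 counts of miR-499-5p in Sperm and 49.0 to 220.0 in Adult.

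Infant 30 and Adult 33 had the highest miR-486-5p of their groups and also the highest miR-451, a red blood cell miRNA. miR-451 stood at 544 CPM in Infant 30, against 65.8 and 40.6 in Infant 31a and 31b, and at 1604 CPM in Adult 33, against 90.4 to 149 in the other Adult libraries. These libraries also had the highest miR-499-5p of their groups in CPM, 31.8 in Infant 30 and 244 in Adult 33. After TMM scaling Infant 30 was still the highest Infant library (38.3 CPM), but Adult 33 was not the highest Adult library. It stood at 156 CPM against 165 in Adult 4 in the testis fit. In the fit of Sperm and Adult it stood at 106, against 143 in Adult 4 and 113 in Adult 13. The difference of Adult against Infant for miR-499-5p was 2.11 without Infant 30 and 1.98 without Adult 33, and that of Sperm against Adult was 5.79 without Adult 33. Of the blood list, 3 of 6 miRNAs were in the table, with a summed level of 590 to 1460 CPM in Sperm and 346 to 2514 in Adult. Its miR-451 was called higher in Sperm (log2 difference 2.69, adjusted p = 2.0e-05), a call that was lost with no scaling beyond the total (0.78), with hairpins in the fit (1.39) and without Adult 20 (1.63). Its miR-150, a lymphocyte miRNA, was lower in Adult than in Infant (log2 difference -2.16, adjusted p = 0.000409). In the other 3 comparisons 0 of 3 members were called. miR-150 was called lower in Puber than in Pre-puber by limma-voom, by DESeq2, without Pre-puber 14 and with hairpins in the fit (adjusted p = 0.0366, 0.0297, 0.0438 and 0.00577), and lower in Sperm than in Adult without Sperm 3 (log2 difference -1.71), by DESeq2, with no filter and with every other scaling tried. miR-142-5p was called lower in Adult than in Infant with upper quartiles, with hairpins in the fit and without Adult 33 (adjusted p = 0.0367, 0.00119 and 0.0196), lower in Puber than in Pre-puber with hairpins in the fit (0.00833) and lower in Sperm than in Adult with no scaling (0.0137). With hairpins in the fit most calls were lower: of 183 tested miRNAs, 97 were called for Puber against Pre-puber (3 higher) and 143 for Adult against Infant (30 higher). For Puber against Pre-puber, limma-voom called 19 of 184 tested miRNAs (16 higher) and DESeq2 16 (11 higher). The fit without Pre-puber 14 called 30 of 184 (24 higher).

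Stromal and smooth muscle miRNAs were listed as markers of somatic tissue, with no cell data here to check that use. The 3 members in the table of 7 listed (miR-145, miR-199a-5p and miR-199b-5p) summed to 32.7 to 97.1 CPM in Sperm and 14329 to 29419 CPM in Adult. All 3 were lower in Sperm, miR-145 by a log2 difference of -8.61 (adjusted p = 2.8e-19) and miR-199a-5p of -7.00 (adjusted p = 1.8e-17). In the same fit miR-499-5p was 5.86 higher in Sperm. The cell source of miR-499-5p in the Sperm libraries was not tested. For Adult against Infant 2 of 3 were lower, and the call of miR-199a-5p was lost with no scaling beyond the total (log2 difference -0.68, adjusted p = 0.0512). The third, miR-145, was not called (log2 difference 0.53), but was called higher with no scaling (adjusted p = 0.00559) and lower with hairpins in the fit (-1.02). No member was called in the other testis comparisons, where miR-199b-5p was called lower in Adult than in Puber without Puber 19 (-2.12) or Adult 20 (-2.07), by DESeq2 and with those groups alone. In these settings 7 of 188, 7 of 185, 10 of 184 and 19 of 176 tested miRNAs were called, in the same order. With hairpins in the fit 3 of 3 were called lower in Puber than in Pre-puber (adjusted p = 0.0186 for miR-145, 0.00476 for miR-199a-5p and 0.0203 for miR-199b-5p). In that setting 97 of 183 tested miRNAs were called, only 3 of them higher, and the median log2 difference was -1.81. These calls therefore say nothing particular to stromal miRNAs. Among all members of these lists, those next to miR-499-5p in mean Adult level were miR-142-5p, at 354 CPM, above it and miR-150, at 114 CPM, below it.

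The miRNAs with the profile most like that of miR-499-5p were found by the root mean square (RMS) difference of log2 TMM-scaled levels over the 13 testis libraries, each miRNA centred on its own mean. The median RMS difference of 183 miRNAs was 1.39 log2 units. The closest was miR-340-5p at 0.45, followed by miR-18a at 0.53, miR-18b at 0.58, miR-122 at 0.59 and miR-374b at 0.59. Infant libraries averaged 1027 ± 150 CPM of miR-340-5p, Pre-puber libraries 1816 ± 376 and Puber libraries 4319 ± 1654 (SD, n = 3 each), and Adult libraries averaged 6794 ± 1154 (SD, n = 4). miR-18a belongs to the miR-17-92 cluster and miR-18b to a paralogous cluster, and both were scarce, at 50.8 ± 32.9 and 8.22 ± 6.41 CPM in Adult. miR-122, best known as the main miRNA of liver, stood at 52.9 ± 22.3 CPM in Adult and 8.05 ± 3.08 in Infant.

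Sperm, which took no part in finding these 5 miRNAs, told them apart. miR-122 stood at 11595 ± 1671 CPM in Sperm and 52.9 ± 22.3 in Adult (SD, n = 4 each), a TMM-scaled log2 difference of 9.42, above the 5.86 of miR-499-5p. miR-340-5p stood at 30552 ± 27177 and 6794 ± 1154 CPM (log2 difference 3.72), and miR-18a at 152 ± 67.8 and 50.8 ± 32.9 (3.29). miR-18b stood at 6.01 ± 1.96 CPM in Sperm and 8.22 ± 6.41 in Adult, lower in CPM but 1.28 higher on the TMM scale. miR-374b stood at 9.26 ± 3.33 CPM in Sperm and 680 ± 294 in Adult (log2 difference -4.49), opposite to miR-499-5p. Over all 17 libraries, with Sperm included, the closest miRNAs were miR-191a at 0.96, miR-124 at 1.10, miR-212 at 1.19, miR-340-5p at 1.21 and miR-217 at 1.22, against a median of 3.38. These last miRNAs were named after their values were seen. miR-124 averaged 0 CPM in Infant and Puber and 43.2 in Sperm, and was not in the testis fit. miR-212 averaged 0.48 CPM in Pre-puber and 116 in Sperm. Over the 13 testis libraries alone miR-191a stood at position 21, miR-217 at 33 and miR-212 at 72. For Adult against Infant miR-212 had a log2 difference of -0.79, miR-191a 0.58, miR-340-5p 1.79 and miR-217 4.63, against 2.05 for miR-499-5p. The part of the prior count in this likeness was not tested.

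**Figure D5:**
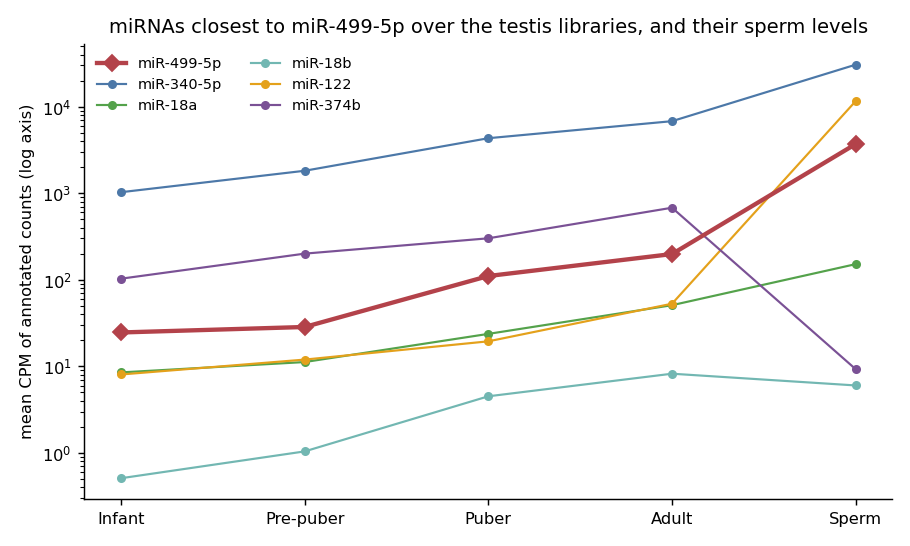
Mean CPM of annotated counts (log axis) by group for miR-499-5p and the 5 miRNAs closest to it over the 13 testis libraries. All 6 lines have higher means in Adult than in Infant, at levels far apart (in Infant 0.51 CPM for miR-18b and 1027 for miR-340-5p), and in Sperm miR-122 stands at 11595 CPM, miR-499-5p at 3700 and miR-374b at 9.26.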

How the data were processed

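Small RNA was sequenced in 17 libraries. The submitters' processing notes name Trimmomatic and the build EquCab3.0. Aligner, counting program and annotation: not given in the sources used here. As deposited, counts are whole read counts per entry, and the deposited RPM values equal each count over its column total, within 0.005 RPM, as the values show. Columns were matched to titles by number. Adult and Sperm titles both use 4, and those columns were told apart by prefix, an inference.

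For each annotated mature miRNA the entry with the highest sum was kept (22 of 274 had more than 1, and miR-499-5p had 1). Counts were filtered with filterByExpr, scaled by TMM and tested with edgeR 4.0.16 (R 4.3.3) by quasi-likelihood F tests with Benjamini-Hochberg adjustment over all tested miRNAs, in 1 fit of the 13 testis libraries and 1 of the 8 Sperm and Adult libraries. limma 3.58.1 and DESeq2 1.42.0 were alternatives. The test was also run on simulated counts for Adult against Infant and Sperm against Adult. These gave every miRNA the same spread and left most unchanged, whereas 81.5% were called in the real Sperm against Adult fit. The simulation therefore cannot vouch for the calls given here. Profiles used a prior count of 2. Intervals are exact Clopper-Pearson and cover counting error only, and reads carry no stated molecular identifiers. Host genes are the protein-coding genes whose span encloses that of the miRNA gene in RefSeq's annotation. Its assembly differs from the submitters' build, so no coordinates are given. Strand and intron were not checked. Named miRNAs are miR-499-5p, the muscle list, the 5 most like profiles, the most abundant members of the other lists and those next to miR-499-5p in Adult level. Other miRNAs named were chosen after their values were seen. The miRNA and the lists were chosen with earlier results of these data known.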

Additional observations from a re-analysis of the deposited data

Results flagged for a closer look

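Among the Adult and Sperm groups of 4 libraries, 45 sets of values were examined for a library far from the others, and chance flags about 1 in 20 such sets. No set of miR-499-5p values was among the 7 found. Sperm 2 was highest in the summed germ cell list, at 230058 CPM against 79125 in the next Sperm library. The same library was highest in miR-34c, at 165900 CPM against 53784, and in miR-34b-5p, at 7589 against 2069. It was also the highest in miR-499-5p, at 6140 CPM, and without it the log2 difference of miR-499-5p for Sperm against Adult was 5.57 in place of 5.86. Adult 33 was highest in miR-451, at 1604 CPM against 149 in the next Adult library, in miR-486-5p, at 4989 against 1144, and in the summed blood list, at 2514 against 565. Adult 20 was lowest in miR-199a-5p, at 6854 CPM against 14105 in the next, and was also the lowest Adult library in miR-499-5p. What part these libraries' differences have in the values of miR-499-5p was not tested beyond leaving each out.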

How the results depend on the processing

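No paired analysis was possible because the groups compared share at most 1 title number. The log2 difference of miR-499-5p for Pre-puber against Infant (-0.25) turned to 0.21 with no scaling beyond the total and 0.20 with all entries in the fit, and that for Puber against Pre-puber (1.74) to -0.035 with all entries. For Adult against Infant (2.05) it was 1.66 with upper quartiles, 3.01 with no scaling, 0.44 with all entries and 1.84 with those groups alone. For Sperm against Adult (5.86) it was 5.20 with DESeq2 size factors or the DESeq2 test, 4.22 with no scaling and 4.91 with all entries. Leaving out 1 library at a time gave -0.50 to -0.02, 1.53 to 2.03, 0.32 to 0.92, 1.88 to 2.13 and 5.26 to 6.04 for Pre-puber against Infant, Puber against Pre-puber, Adult against Puber, Adult against Infant and Sperm against Adult. The deposited RPM over all entries gave 18.2 in Infant, in place of 24.6 CPM.

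Counts of called miRNAs for Puber against Pre-puber (2) were 8 with DESeq2 size factors, 7 with upper quartiles, 9 with no scaling, 16 with DESeq2, 19 with limma-voom, 97 with all entries and 0 with libraries sharing a title number summed or with those groups alone. For Adult against Puber (0) they were 1 with no scaling, 10 with DESeq2 and 19 with those groups alone. For Pre-puber against Infant (44) they were 29 with summed libraries and 26 with those groups alone, and for Adult against Infant (95) 143 with all entries. Leaving out 1 library gave 33 to 42, 0 to 30 (the highest without Pre-puber 14), 0 to 7 (the highest without Puber 19 or Adult 20), 75 to 92 and 130 to 137 in the same order of comparisons. Of the 5 most like profiles, 4 were shared with a prior count of 0.5, 5 with no scaling and 4 to 5 when 1 library was left out. In each of these cases the cause was not tested. No sum of entries was made, since miR-499-5p had 1 entry. Depth limits scarce miRNAs such as miR-18b more than miR-499-5p.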
